A study of Mus musculus with 9 samples.

Results

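The SR and hnRNP splicing factors were read as the 31 genes of the count table whose symbol is Srsf followed by a number (11 SR genes) or Hnrnp followed by letters and numbers (20 hnRNP genes), out of 56748 genes in all. All 31 passed the filter on low counts and were among the 17171 genes tested. RNA came from mouse whole brain on embryonic day 14, while cortical neurons are being born, in 3 groups of 3 libraries. Controls, called wild type in the study's design, had received saline. A second group had been exposed to poly(I:C), a synthetic double-stranded RNA that imitates viral infection, and the last to valproic acid, an anticonvulsant that inhibits histone deacetylases. Exposure before birth to either agent is used in mice to model autism spectrum disorder. The labels name no strain, dose, day of exposure, litter or sex, and do not say whether libraries of a group came from separate embryos, so p-values measure the spread between these libraries, part of which may be technical.

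SR proteins carry RNA recognition motifs and a tail rich in arginine and serine, bind exonic enhancers and help recruit the spliceosome to nearby splice sites. Heterogeneous nuclear ribonucleoproteins (hnRNPs) coat nascent transcripts, often oppose SR proteins at splice sites, and also act in RNA export, stability and translation. Many genes of both families limit their own output by splicing in an exon with an early stop codon, which sends the transcript to nonsense-mediated decay. In the developing brain these factors are abundant in dividing progenitors and neurons alike, and the related regulator Ptbp1 holds back neuronal splicing in progenitors.

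Library totals ranged from 15399974 to 19883131 counts. Xist, the RNA of the inactive X chromosome, was at 979 to 1054 CPM (counts per 1000000 of scaled library size) under valproic acid, at 1047 CPM in poly(I:C) replicate 3 and at 0.236 CPM or less in every other library. Summed Y-linked genes were at 196 to 201 CPM in replicates 1 and 2 of control and poly(I:C), and at 0 elsewhere, control replicate 3 included. Sex-linked expression therefore cannot be told apart from valproic acid in the comparison with control. Of 5 markers of cycling cells 3 rose under valproic acid and their summed level was 667 to 687 CPM in control, 686 to 751 under poly(I:C) and 738 to 831 under valproic acid. Of 7 radial glia markers 2 rose (1830 to 1864 CPM in sum in control, 1975 to 2051 under valproic acid), and of 6 postmitotic neuron markers 4 fell (6943 to 7131 against 6349 to 6754 CPM). Erythroid markers, 4 of 10 higher, summed to 1792 to 2090 CPM in control and 2255 to 2615 under valproic acid. Of 7 microglia markers 2 were lower (79.2 to 85.5 against 64.7 to 74.6 CPM in sum). Of 5 endothelial markers Pecam1 was higher (253 to 263 against 263 to 287 CPM in sum). Of 6 mural and meningeal markers only Rgs5 was called, and it was lower, while 5 of the 6 had a log2 change above 0 (median 0.16). The 6 together were at 752 to 800 CPM in control and 732 to 923 CPM under valproic acid. Of 4 choroid plexus markers 0 were called. No marker of these lists was called under poly(I:C) against control. Of all tested genes 0.536% were called in that comparison and 6.35% under valproic acid against control. No marker on these lists was at 0 in every library, and the part of any of them in the results below was not tested. In whole tissue, fewer cells of a type and less RNA per cell cannot be told apart.

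The 31 genes together took 15274 to 15697 CPM in control, of which the hnRNP genes held 12472 to 12792 CPM and the SR genes 2741 to 2905 CPM. Their share of the raw counts, all 31 genes together, was 1.53% to 1.59% in the control libraries. Levels were compared between genes per kb of exon, in control (mean ± SD, n = 3). Hnrnpa1, which binds intronic and exonic silencers and also shuttles mRNA to the cytoplasm, was highest at 585 ± 6.88 CPM per kb. Hnrnpa0 followed at 460 ± 19.3 and Hnrnpab at 304 ± 2.74 CPM per kb. These steps were larger than the spread between libraries. In the middle of the order, Srsf6 (75.0 ± 1.04), Srsf7 (74.6 ± 2.67) and Hnrnpl (74.5 ± 2.20 CPM per kb) lay closer together than their spread. The lowest were Srsf12 (6.54 ± 0.226), Hnrnpll (12.5 ± 0.462) and Srsf4 (13.1 ± 0.249 CPM per kb). The gap between Srsf4 and Hnrnpll was smaller than the sum of their SDs. As means over the libraries of all groups, exposed ones included, 24 of the 31 genes lay above the 90th percentile of levels per length of all tested genes. By the same means 28 averaged 100 CPM or more. The lowest count of any member was 235, for Srsf12, and the highest 36725, for Hnrnpa1, so counting error was largest relative to level for Srsf12. The coefficient of variation among the 3 control libraries had a median of 3.11% over the members, from 0.593% for Hnrnpul2 to 8.53% for Srsf9.

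**Figure D1:**
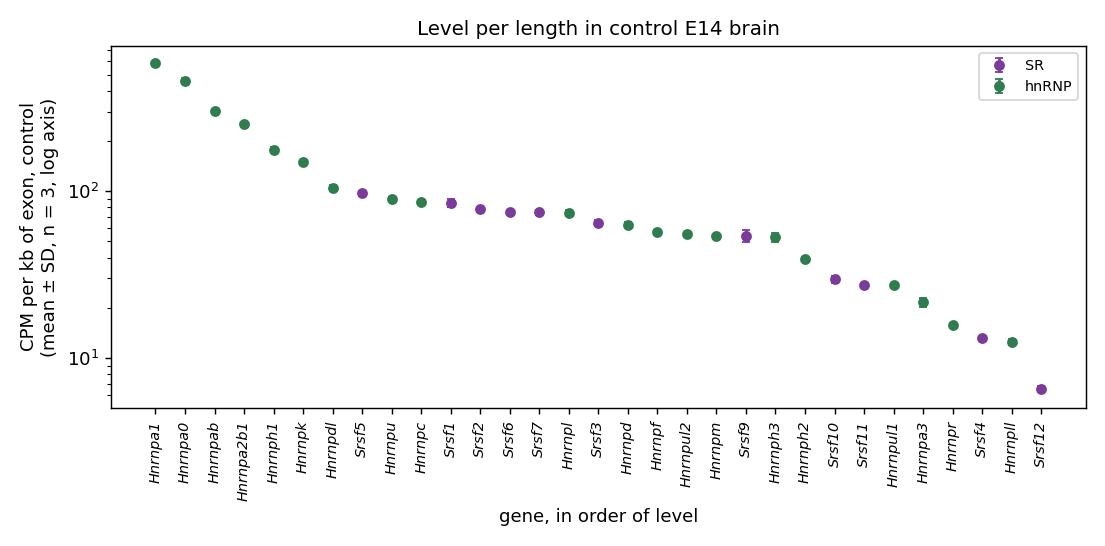
Level of each of the 31 genes per kb of exon in the 3 control libraries (y axis, CPM per kb, log scale, mean ± SD), in order of level along the x axis. The 7 highest genes are all hnRNP genes, led by Hnrnpa1 at 585 CPM per kb, and Srsf12 is lowest at 6.54 CPM per kb.

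In the GENCODE M21 annotation 19 of the 31 genes have at least 1 transcript classed as a target of nonsense-mediated decay (9 of 11 SR genes and 10 of 20 hnRNP genes, 61.3% in all), against 27.4% of 14286 tested protein-coding genes. A transcript with a retained intron is annotated for 22 members (71.0%, against 56.5%). The members have a median of 7 annotated transcripts and the tested protein-coding genes a median of 5, which bears on such shares. The deposited counts sum over all transcripts of a gene, so a shift between productive and unproductive isoforms is not visible in the values below. Hnrnph2 lies on chromosome X and the other 30 members on autosomes.

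Under valproic acid 7 of the 31 genes rose against control and 0 fell by edgeR's quasi-likelihood test (Benjamini-Hochberg adjusted p under 0.05 over all tested genes; 14 higher and 2 lower at an unadjusted p under 0.05). These were 6 of the 20 hnRNP genes and 1 of the 11 SR genes: Hnrnpm, Hnrnpc, Hnrnpf, Hnrnph3, Hnrnpu, Hnrnpa1 and Srsf3, each 1.07-fold to 1.15-fold higher. The background was 6.35% of all tested genes called (3.57% higher, 2.78% lower; 22.1% at an unadjusted p under 0.05) and 15.2% of the 2604 genes averaging 100 CPM or more (11.1% higher), a split chosen after the values were seen because 28 members, all 7 called ones among them, are that abundant. The members' share was 22.6%. Their median log2 change was 0.07 beside -0.00 over all genes tested, and 23 of 31 were above 0, against 49.1% of all genes. The median and the share above 0 were not computed for abundant genes alone, whose calls were mostly upward. In 15 members every valproic acid library lay above every control library and in 2 every one lay below, where the background was 12.6% and 13.0% of all genes, and 27.1% of abundant genes in the upward direction. Summed over the 31 genes, the valproic acid libraries held 16106 to 16322 CPM and lay above each of the other 6 libraries. With summed Y-linked expression as a covariate 1 member stayed called, and with Xist 0, while the share called over all tested genes went from 6.35% to 1.58% and 0.0815%.

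Hnrnpm (ENSMUSG00000059208, chromosome 17), which binds GU-rich motifs and represses or activates nearby exons, was at 433, 433 and 427 CPM in control replicates 1 to 3. It was at 463, 440 and 451 CPM under poly(I:C) and at 495, 498 and 492 CPM under valproic acid. The 3 groups did not overlap, and poly(I:C) stood in the middle. The log2 change against control was 0.20 (SE 0.0325, edgeR adjusted p = 0.00306). Of the 7 calls, that of Hnrnpm alone held in each of the 6 fits with 1 library removed (highest edgeR adjusted p 0.0170). It was also the call that held with the Y-linked covariate (log2 change 0.21, edgeR adjusted p = 0.0229). With Xist as a covariate its log2 change was again 0.20 but its SE rose to 0.0617 (edgeR adjusted p = 0.315). Poly(I:C) replicate 3, which held Xist, lay between replicates 1 and 2 of its group, which did not. That is 1 library, and the part of sex in the change under valproic acid was not tested.

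Hnrnpc (ENSMUSG00000060373, chromosome 14), which packages nascent RNA on uridine tracts and blocks cryptic exons, was at 364, 368 and 379 CPM in control. It was at 397, 389 and 386 CPM under poly(I:C) and at 408, 410 and 426 CPM under valproic acid. The 3 groups did not overlap, in the same order. The log2 change under valproic acid was 0.16 (SE 0.0343, edgeR adjusted p = 0.0133). Removing control replicate 1 or valproic acid replicate 3 ended this call (highest edgeR adjusted p 0.0645).

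Hnrnpu (ENSMUSG00000039630, chromosome 1), the scaffold attachment factor that binds chromatin and nascent RNA, was at 1034, 1024 and 1067 CPM in control. It was at 1083, 1035 and 1057 CPM under poly(I:C) and at 1102, 1163 and 1166 CPM under valproic acid. Control and poly(I:C) overlapped, and valproic acid lay above both. Its log2 change was 0.13 (SE 0.0331, edgeR adjusted p = 0.0277). Hnrnpa1 (ENSMUSG00000046434, chromosome 15) was at 1839, 1868 and 1825 CPM in control. It was at 1882, 1925 and 1884 CPM under poly(I:C) and at 1976, 2007 and 1946 CPM under valproic acid. Here too the 3 groups did not overlap. The difference was the smallest of the 7 calls (log2 change 0.10, SE 0.0268, edgeR adjusted p = 0.0391). The call of Hnrnpu ended on removal of replicate 1 or 2 of control or of replicate 2 or 3 of valproic acid (highest edgeR adjusted p 0.0990). Hnrnpa1 lost its call in each of the 6 fits with 1 library removed (edgeR adjusted p 0.0544 to 0.129).

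Hnrnpf and Hnrnph3 belong to the hnRNP F/H subfamily, whose proteins bind runs of guanosines. Hnrnpf (ENSMUSG00000042079, chromosome 6) was at 178, 168 and 170 CPM in control. It was at 186, 175 and 177 CPM under poly(I:C) and at 191, 199 and 194 CPM under valproic acid. Only the valproic acid libraries stood clear of control (log2 change 0.17, SE 0.0384, edgeR adjusted p = 0.0166). Hnrnph3 (ENSMUSG00000020069, chromosome 10) was at 162, 179 and 161 CPM in control. It was at 201, 183 and 190 CPM under poly(I:C) and at 190, 190 and 196 CPM under valproic acid. The exposed groups overlapped with each other and both lay above control, and control replicate 2 lay nearest to them. The log2 change under valproic acid was 0.20 (SE 0.0474, edgeR adjusted p = 0.0238). The call of Hnrnpf ended on removal of replicate 2 or 3 of control or of replicate 2 of valproic acid (highest edgeR adjusted p 0.0591). That of Hnrnph3 ended on removal of replicate 1 or 3 of control or of replicate 3 of valproic acid (0.0971). Exons of Hnrnpf, Hnrnph3 and Hnrnpu overlap those of antisense genes, and without a stated strand setting such reads cannot be told apart. Exons of Hnrnpm overlap those of March2 on the same strand, where a strand setting would not separate the reads either. The other members of the subfamily were not called. Hnrnph1 had a log2 change of 0.05 (SE 0.0319, edgeR adjusted p = 0.370). Hnrnph2, the X-linked member, was at 172, 165 and 175 CPM in the control libraries and 174, 176 and 160 CPM under valproic acid, and these groups overlapped (log2 change -0.01, SE 0.0420, edgeR adjusted p = 0.957).

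**Figure D2:**
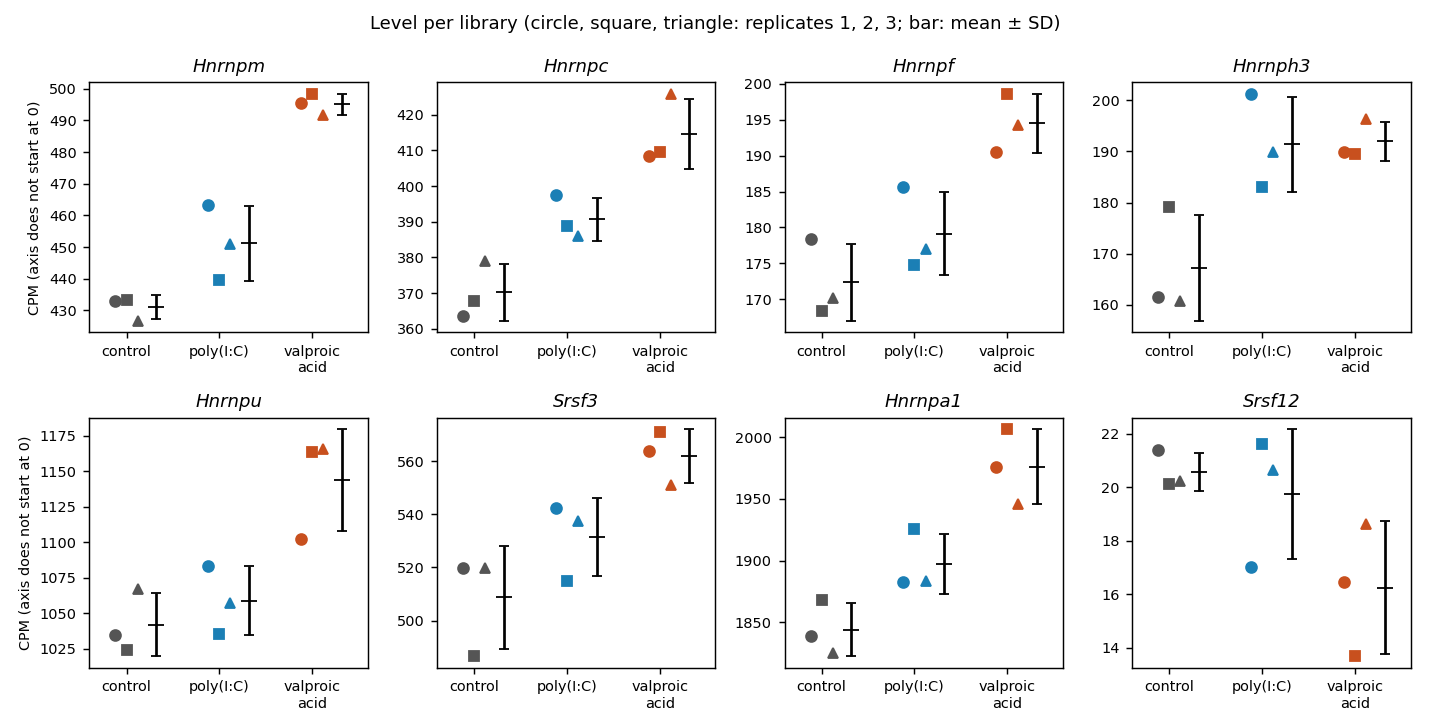
CPM per library (y axis, a separate scale for each gene that does not start at 0) in control, poly(I:C) and valproic acid brains (x axis) for the 7 genes called under valproic acid and for Srsf12, with mean ± SD at the right of each group. In the 7 called genes the lowest valproic acid library lies above the highest control library, for Hnrnpm 492 against 433 CPM, and in Srsf12 the order is the opposite.

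Among the SR genes Srsf3 was the only one called. Srsf3 (ENSMUSG00000071172, chromosome 17), the smallest SR protein and an adaptor for mRNA export, was at 520, 486 and 520 CPM in control. It was at 542, 515 and 537 CPM under poly(I:C) and at 564, 571 and 551 CPM under valproic acid. Poly(I:C) overlapped with control and valproic acid lay above both (log2 change 0.14, SE 0.0367, edgeR adjusted p = 0.0319). The call was kept in none of the 6 fits that left out 1 library (edgeR adjusted p 0.0527 to 0.105). Srsf7, a close relative of Srsf3 that also acts in export and polyadenylation, was at 267, 255 and 273 CPM in the control libraries and 300, 290 and 292 CPM under valproic acid. These groups did not overlap, but the difference missed the threshold (log2 change 0.15, SE 0.0431, edgeR adjusted p = 0.0526). Srsf1, the founding member of the family, had control and valproic acid means of 485 ± 24.6 and 497 ± 6.98 CPM (mean ± SD, n = 3; edgeR adjusted p = 0.651). Srsf2, which binds exonic enhancers and acts in transcription elongation, had means of 231 ± 7.48 and 236 ± 9.21 CPM (edgeR adjusted p = 0.672). For these 2 the difference lay within the spread between libraries.

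The members with the lowest log2 changes were not called either. Srsf12, an SR protein reported to antagonise other SR proteins, was at 21.4, 20.1 and 20.2 CPM in the controls and at 16.4, 13.7 and 18.6 CPM under valproic acid. These groups did not overlap, and poly(I:C) at 17.0, 21.6 and 20.6 CPM overlapped with both. The log2 change under valproic acid was -0.34 (SE 0.114, edgeR adjusted p = 0.0873). Hnrnpa3, a binder of trafficking signals in neuronal mRNA, was at 123, 109 and 117 CPM in the controls and at 104, 105 and 104 CPM under valproic acid. Its groups did not overlap (log2 change -0.15, SE 0.0475, edgeR adjusted p = 0.0668). Without control replicate 2 Hnrnpa3 was called (edgeR adjusted p = 0.0326), and without valproic acid replicate 3 Srsf12 was (0.0484). Hnrnpa2b1, which sorts RNA into granules and exosomes, stood at the threshold in the other direction. It was at 1670, 1623 and 1705 CPM in the controls and 1790, 1777 and 1792 CPM under valproic acid, with no overlap (log2 change 0.10, SE 0.0286, edgeR adjusted p = 0.05003). Its libraries under poly(I:C), at 1661, 1708 and 1653 CPM, overlapped with control. Hnrnpd, which binds AU-rich elements and speeds mRNA decay, hardly differed in its means (463 ± 15.5 and 462 ± 12.7 CPM; log2 change -0.00, SE 0.0361).

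The 15 members not yet named for their response, 6 SR and 9 hnRNP genes, had log2 changes between -0.07 (Hnrnpdl, a relative of Hnrnpd) and 0.15 (Srsf9) under valproic acid, with edgeR adjusted p from 0.0929 upward. The smallest p among them was that of Hnrnpab, an RNA-binding factor linked to neuronal mRNA transport. Its controls were at 839, 844 and 854 CPM and its valproic acid libraries at 894, 912 and 895 CPM, with no overlap (log2 change 0.09, SE 0.0304, edgeR adjusted p = 0.0929). Hnrnpk, a poly(C)-binding protein of chromatin and mRNA, was at 957, 950 and 990 CPM in the control libraries, and at 1020, 1060 and 1013 CPM under valproic acid, with no overlap (log2 change 0.09, SE 0.0321, edgeR adjusted p = 0.0955). The valproic acid libraries also lay wholly above control in Srsf4, Srsf6, Srsf10 and Hnrnpr. Srsf6, which regulates exons of the neuronal gene Mapt, was at 366, 356 and 359 CPM in the controls and 394, 367 and 371 CPM in the valproic acid libraries (log2 change 0.07, SE 0.0362, edgeR adjusted p = 0.317). Srsf4 was at 47.6, 45.9 and 46.8 CPM in the control libraries, and at 51.7, 51.0 and 49.8 CPM in the valproic acid libraries (log2 change 0.12, SE 0.0504, edgeR adjusted p = 0.169). Srsf9, the most variable member in control, was at 80.4, 94.5 and 92.3 CPM there and at 103, 98.9 and 94.1 CPM under valproic acid, and these groups overlapped. In Srsf5, Srsf11, Hnrnpa0, Hnrnpdl, Hnrnpl, Hnrnpll, Hnrnpul1 and Hnrnpul2 the groups overlapped as well. Under poly(I:C) the log2 changes of these 15 lay between -0.10 (Srsf5) and 0.11 (Srsf9), with edgeR adjusted p of 0.377 or more.

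**Figure D3:**
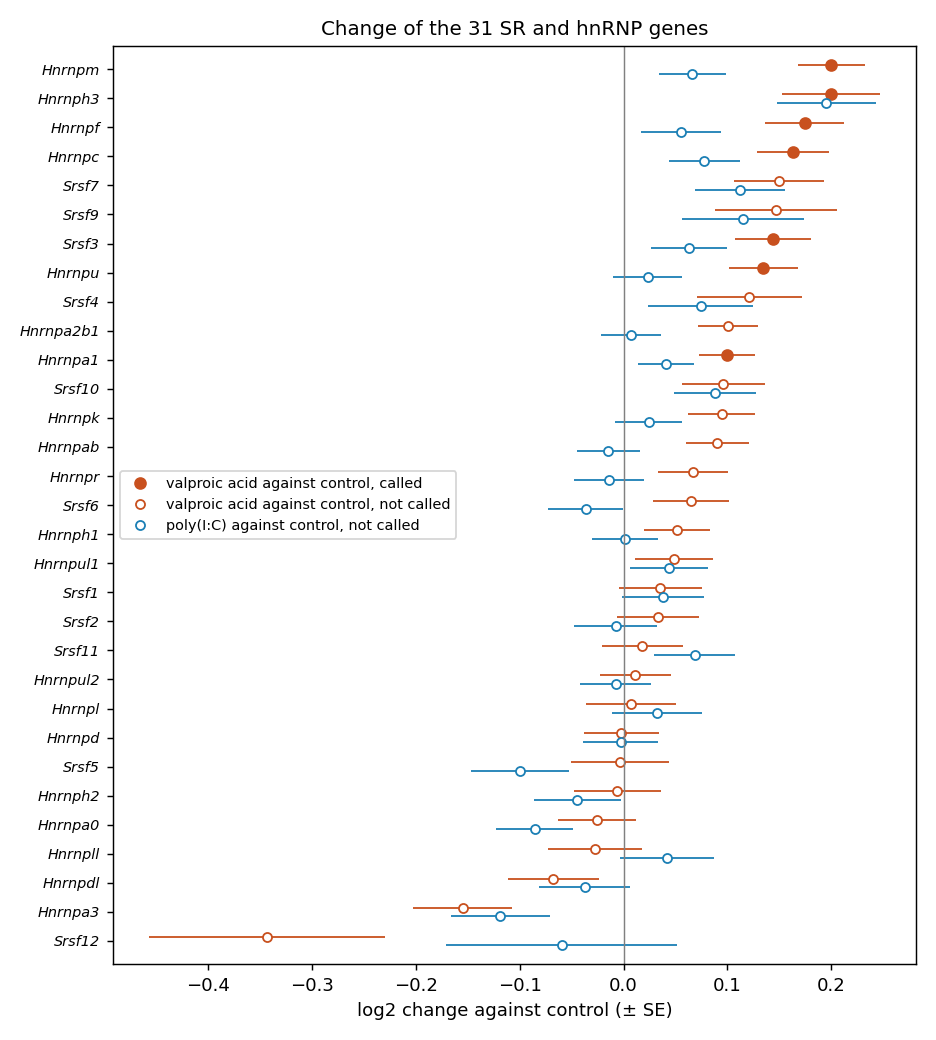
Log2 change against control (x axis, ± SE) of the 31 genes (y axis, ordered by the change under valproic acid) for valproic acid and poly(I:C). Filled points passed an adjusted p of 0.05: 7 for valproic acid, all to the right of 0, and 0 for poly(I:C). The 2 comparisons share the control libraries.

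Promoter sequences are shown for Hnrnpm, Hnrnpc and Hnrnph3, the called genes with the smallest adjusted p among those with a single RefSeq start, and for Srsf3, the SR gene called. Each is the 250 bases before the start, 5′ to 3′ on the gene's strand, from RefSeq on GRCm38.p6, whereas the submitters' notes name GRCm39. Capitals mark matches on either strand to the motifs CCGGAAG (the core of ETS sites), GGGCGG (the box bound by Sp1), TATAAA (the element near many starts), CACGTG (the E-box), CCAAT (bound by NF-Y) and the palindromic motif of NRF1.
Hnrnpm, chr17:33685459-33685708, minus strand: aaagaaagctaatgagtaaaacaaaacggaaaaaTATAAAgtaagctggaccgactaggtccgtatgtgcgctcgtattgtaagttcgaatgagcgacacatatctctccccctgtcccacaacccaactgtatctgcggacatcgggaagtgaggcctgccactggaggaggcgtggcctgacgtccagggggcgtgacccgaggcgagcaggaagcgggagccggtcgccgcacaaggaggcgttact
Hnrnpc, chr14:52104022-52104271, minus strand: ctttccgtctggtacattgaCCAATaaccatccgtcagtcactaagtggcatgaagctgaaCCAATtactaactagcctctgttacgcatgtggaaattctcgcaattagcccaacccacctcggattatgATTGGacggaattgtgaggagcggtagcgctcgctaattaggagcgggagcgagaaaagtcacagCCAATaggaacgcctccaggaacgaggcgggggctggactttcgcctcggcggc
Hnrnph3, chr10:63023850-63024099, minus strand: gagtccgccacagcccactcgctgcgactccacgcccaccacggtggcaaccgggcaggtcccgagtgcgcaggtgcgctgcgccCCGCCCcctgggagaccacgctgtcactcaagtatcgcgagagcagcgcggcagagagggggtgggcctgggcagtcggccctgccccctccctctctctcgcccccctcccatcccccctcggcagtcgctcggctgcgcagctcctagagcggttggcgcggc
Srsf3, chr17:29032410-29032659, plus strand: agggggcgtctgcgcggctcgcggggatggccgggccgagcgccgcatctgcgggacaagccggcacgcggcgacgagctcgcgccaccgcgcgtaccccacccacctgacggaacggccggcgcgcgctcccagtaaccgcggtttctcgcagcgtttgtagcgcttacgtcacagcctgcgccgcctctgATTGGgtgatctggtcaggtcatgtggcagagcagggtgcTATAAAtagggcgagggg
The Hnrnpm window holds TATAAA, near its 5′ end, and no other searched motif. The Hnrnpc window holds CCAAT 4 times, counting both strands, the Hnrnph3 window 1 match to GGGCGG, and the Srsf3 window 1 CCAAT and a TATAAA near its 3′ end. Entries were found for 29 of the 31 members (not for Hnrnpll and Hnrnpul2), and 23 of them have 1 start. Of these 23 windows 19 hold GGGCGG (82.6%, against 32.7% of all 32851 windows in the table), 12 hold CCAAT (52.2% against 33.8%), 3 hold TATAAA (13.0% against 12.4%) and 3 CCGGAAG (13.0% against 6.91%). CACGTG is in 2 (8.70% against 6.02%) and the NRF1 motif in 2 (8.70% against 3.74%). Their median G+C content was 68.0%, against 52.4% over all windows, with a median of 25 CG dinucleotides against 6. GGGCGG consists of G and C alone, so its share moves with that content. The background windows were not limited to genes with a single start or to tested genes, unlike the members, and a matched background was not computed. A match is a description of the letters in the window.

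Under poly(I:C) 0 of the 31 genes were called against control by edgeR (6 at an unadjusted p under 0.05, 4 of them higher), where the background was 0.536% of all tested genes (0.262% higher, 0.274% lower; 12% at an unadjusted p under 0.05) and 0.96% of the abundant ones (0.614% higher). DESeq2's Wald test called 1, Hnrnph3. The median log2 change of the members was 0.02 and 19 of 31 were above 0 (48.9% of all genes were, and the share of abundant genes was not computed). Their summed level of 15472 to 15700 CPM overlapped with that of control. The smallest p-values belonged to Hnrnph3, Srsf7 and Hnrnpa3. Hnrnph3, with the values given above, had a log2 change of 0.20 (SE 0.0473, edgeR adjusted p = 0.0916), and without control replicate 2 it was called (edgeR adjusted p = 0.0353). Srsf7 was at 301, 270 and 287 CPM under poly(I:C), of which replicate 2 fell among the controls (log2 change 0.11, SE 0.0431, edgeR adjusted p = 0.301). Hnrnpa3 was at 111, 106 and 105 CPM and overlapped with control through replicate 1 (log2 change -0.12, SE 0.0474, edgeR adjusted p = 0.322). In 6 members the poly(I:C) libraries lay wholly above control and in 1, Srsf6, wholly below (background 9.61% and 8.83% of all genes; 20.2% of abundant genes upward). Srsf6 was at 355, 354 and 345 CPM under poly(I:C) (edgeR adjusted p = 0.747).

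The direct comparison of the exposures called 1 member. Hnrnpm was higher under valproic acid than under poly(I:C) (log2 change 0.13, SE 0.0325, edgeR adjusted p = 0.0432), where 2.59% of all genes (1.42% higher, 1.18% lower) and 6.07% of abundant genes (3.69% higher) were called. Above 0 were 24 of the 31 members, against 50% of all genes, and the share of abundant genes above 0 was not computed. In this comparison 8 of 10 erythroid markers were higher (1384 to 2015 CPM in sum under poly(I:C), 2255 to 2615 under valproic acid), as were 3 of 6 mural and meningeal markers (663 to 696 against 732 to 923 CPM). Of the neuron markers 3 of 6 were lower (6914 to 7287 against 6349 to 6754 CPM), and 1 each of the cycling, radial glia and endothelial markers was higher. Their part in the result was not tested. The call of Hnrnpm was lost in each of the 6 fits with 1 library removed (edgeR adjusted p 0.0597 to 0.186) and with either sex-linked covariate (0.163 with Y-linked expression and 0.353 with Xist). In 13 members the valproic acid libraries lay wholly above those of poly(I:C) and in 0 wholly below (background 10.5% and 11.4% of all genes; 15.7% of abundant genes upward). Hnrnpab was among them, at 853, 813 and 845 CPM under poly(I:C) beside the valproic acid and control values given above (log2 change between exposures 0.11, SE 0.0304, edgeR adjusted p = 0.0859). Hnrnph3 differed least from 0 among the 7 genes called against control (log2 change 0.00, SE 0.0473).

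Genes around the 2 families were read from 6 lists. The lists were chosen with results of these data known, so their counts are a description. Of all tested genes 6.35% were called for valproic acid against control, 0.536% for poly(I:C) against control and 2.59% between the exposures. Of genes averaging 100 CPM or more 15.2%, 0.96% and 6.07% were called. Under valproic acid 49.1% of all genes had a log2 change above 0. Of 18 hnRNP proteins under other symbols 4 rose under valproic acid against control and 0 fell (22.2% called, median log2 change 0.08). Of these 18 genes 16 averaged 100 CPM or more. Ptbp1, the polypyrimidine tract binding protein of progenitors, was at 125, 124 and 131 CPM in control. It was at 139, 128 and 132 CPM under poly(I:C) and at 152, 148 and 151 CPM under valproic acid. The valproic acid libraries lay above all others (log2 change against control 0.25, SE 0.0416, edgeR adjusted p = 0.00393; against poly(I:C) 0.18, edgeR adjusted p = 0.0366). Ptbp2, the paralog that takes over in neurons, had means of 332 ± 12.6 CPM in the controls and 330 ± 5.78 CPM under valproic acid, a difference within the spread (edgeR adjusted p = 0.914; looked up after the result of Ptbp1 was seen). The poly(C)-binding proteins Pcbp2 and Pcbp1 rose 1.21-fold and 1.14-fold and Raly, an hnRNP C relative, 1.11-fold (edgeR adjusted p = 0.00596, 0.00732 and 0.0345).

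Of 40 core spliceosome genes 9 rose and 1 fell under valproic acid, a share of 25.0% against 6.35% of all tested genes. Of these 40 genes 20 averaged 100 CPM or more, where the background was 15.2%. A log2 change above 0 was seen in 37 of 40 (median 0.11), against 49.1% of all genes. The helicase of late splicing Dhx38 rose from 81.9 ± 1.23 to 97.1 ± 4.06 CPM (mean ± SD, n = 3; log2 change 0.25, edgeR adjusted p = 0.00691). The U5 components Snrnp200 and Eftud2 rose 1.19-fold and 1.14-fold and the helicase Ddx23 1.14-fold (edgeR adjusted p = 0.00842, 0.0108 and 0.0112). Snrpb2, a U2 protein, fell from 62.0 ± 3.07 to 53.8 ± 2.29 CPM (edgeR adjusted p = 0.0362; looked up after the count was seen). Under poly(I:C) 0 of these 40 were called by edgeR (13 at an unadjusted p under 0.05, all higher), with a median of 0.09. Over all tested genes 0.536% were called and 12% had an unadjusted p under 0.05. The lowest adjusted p was that of Sf3a1, at 176 ± 2.40 CPM in the controls and 197 ± 4.49 CPM under poly(I:C) (edgeR adjusted p = 0.0655), and next came Ddx23 at 128 ± 2.38 and 141 ± 2.81 CPM. The comparisons share the control libraries.

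Of 23 SR-related proteins 2 rose under valproic acid (8.70%, against 6.35% of all tested genes and 15.2% of abundant ones). They were Acin1, part of the complex laid down at exon junctions, and Srrm2, a scaffold of nuclear speckles. Acin1 was at 356, 384 and 373 CPM in control. It was at 429, 420 and 421 CPM under poly(I:C) and at 430, 404 and 424 CPM under valproic acid, so that both exposed groups lay above control and overlapped with each other. It was the only gene of the 6 lists called under poly(I:C) (log2 change 0.19, SE 0.0377, edgeR adjusted p = 0.0407; under valproic acid 0.18, adjusted p = 0.0137). Of 9 tested kinases and import factors of SR proteins 1 was called under valproic acid (11.1%). Srpk2, a cytoplasmic SR protein kinase, fell from 164 ± 4.39 to 147 ± 6.08 CPM (edgeR adjusted p = 0.0365). Of 21 neural splicing regulators 1 fell (4.76%, near the share of all tested genes). It was Rbfox1, a neuronal regulator that binds GCAUG, from 79.4 ± 4.45 to 68.6 ± 3.57 CPM (edgeR adjusted p = 0.0337). The median of that list was -0.07 and 15 of 21 were below 0. By edgeR 10 of the 21 had an unadjusted p under 0.05, 8 lower and 2 higher, against 22.1% of all tested genes. That share was not computed for abundant genes. Of 15 genes of nonsense-mediated decay 1 rose, Eif4a3 of the exon junction complex (1.11-fold, edgeR adjusted p = 0.0474). This share, 6.67%, was also near that of all tested genes. In the comparison of the exposures Ptbp1 was the only gene of the 6 lists called.

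On the lists with no call, the smallest p-values belonged to genes whose differences stayed short of the threshold. Under poly(I:C) against control the neural regulators Nova2 and Mbnl1 had log2 changes of 0.15 and -0.21 (edgeR adjusted p = 0.146 and 0.246). The cold-inducible Cirbp and Pcbp1 had -0.21 and 0.10 (0.184 and 0.268), the kinases Clk2 and Srpk2 0.10 and -0.06 (0.481 and 0.601), and the decay factors Smg5 and Eif4a3 -0.11 and 0.09 (0.369 and 0.437). Between the exposures, valproic acid minus poly(I:C), the neural regulators Rbfox2 and Celf6 had log2 changes of -0.11 and -0.23 (edgeR adjusted p = 0.0857 and 0.132). The U4/U6 protein Prpf31 and Snrpb2 had 0.16 and -0.17 (0.0726 and 0.105), and the U1-associated Luc7l and Luc7l3 -0.14 and -0.16 (0.105 and 0.181). Srpk2 and the kinase Clk1 had -0.09 and -0.17 (0.264 and 0.313), and the decay factors Upf3b and Upf1 -0.19 and 0.14 (0.127 and 0.238).

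Leaving out 1 library ended 12 of the 19 calls on these lists for valproic acid against control in at least 1 of the 6 fits. Ptbp1, Pcbp1, Pcbp2, Dhx38, Snrnp200, Eftud2 and Ddx23 were the 7 called in every fit (highest edgeR adjusted p 0.0498, for Eftud2). Without control replicate 1 the call of Acin1 ended (0.0711), as did those of Sf3a1 (also without valproic acid replicate 3), Prpf8 (also without control replicate 3) and Srrm2 (also without either of these). Raly was called only without control replicate 2, Srpk2 and Snrpb2 only without valproic acid replicate 2, and Prpf31 only without valproic acid replicate 1. Sf3b3 was called without control replicate 2 or valproic acid replicate 1, Rbfox1 without control replicate 1 or valproic acid replicate 3, Snrpc without replicate 3 of either group, and Eif4a3 in no such fit. With Y-linked expression as a covariate only Pcbp2 of the 19 stayed called (edgeR adjusted p = 0.0263), and with Xist none did. The call of Acin1 under poly(I:C) was kept among the 6 fits only without control replicate 2 (edgeR adjusted p up to 0.182), and it was 0.0446 with the Y-linked covariate and 0.116 with Xist. That of Ptbp1 between the exposures was kept only without poly(I:C) replicate 1 (up to 0.178).

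**Figure D4:**
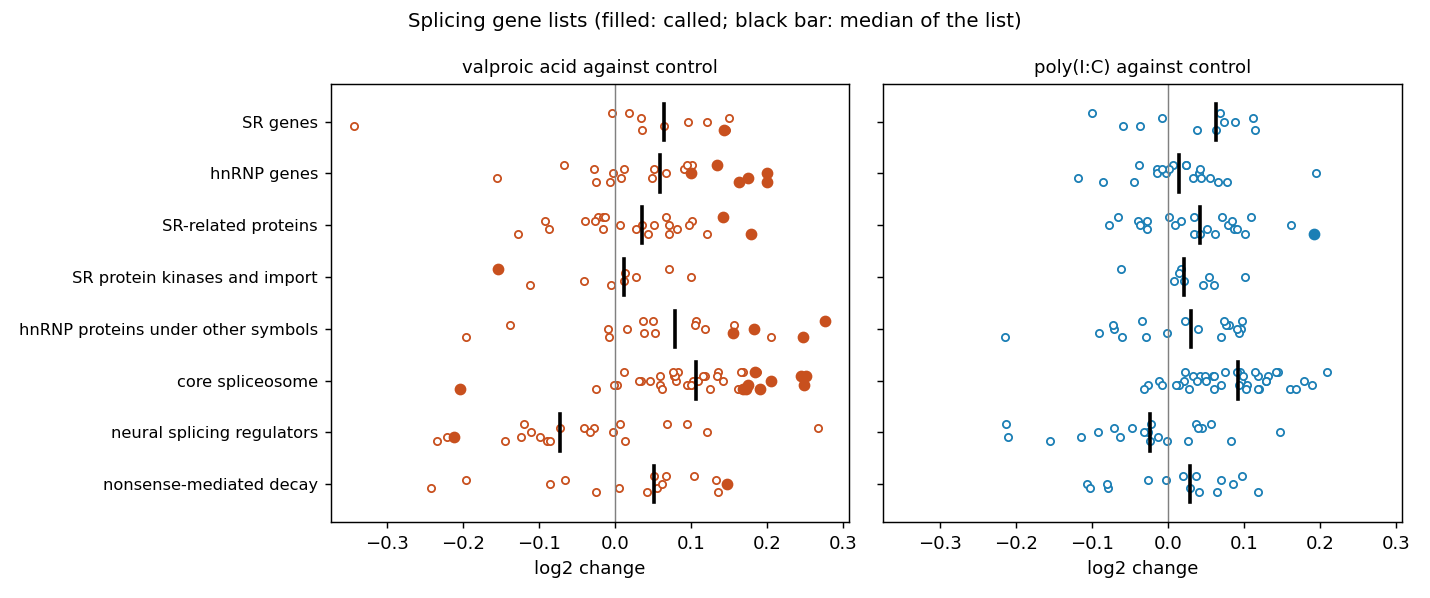
Log2 change against control (x axis) of each gene of the SR and hnRNP families and of 6 lists of related genes (y axis), for valproic acid (left) and poly(I:C) (right). Filled points were called and black bars are list medians: in the core spliceosome list the median is 0.11 under valproic acid and 0.09 under poly(I:C), and in the neural splicing regulators -0.07 and -0.02.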

How the data were processed

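The authors deposited raw counts by Ensembl gene, whole numbers with no normalization. HISAT2 and GRCm39 are named per the submitters' processing notes. The read counter, strandedness and gene annotation were not given in the sources used here. Per the labels' protocols, total RNA was depleted of ribosomal RNA. GENCODE M21 supplied symbols, chromosomes and union exon lengths. In it exons of 14 members overlap another gene, 11 of them an antisense gene, Hnrnpf, Hnrnph3 and Hnrnpu among these. Exons of Hnrnpm overlap March2 on the same strand. Such reads cannot be told apart, and Hnrnpa1 may share reads with its retrocopies. GENCODE M21 rests on GRCm38, so a level per kb is approximate. Symbols were missing for 4675 of the 56748 genes.

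Genes were kept by filterByExpr (min.count 10, min.total.count 15), scaled by trimmed mean of M-values and fitted over all 9 libraries with a mean per group in edgeR 4.0.16 (R 4.3.3). Two-sided quasi-likelihood F-tests were adjusted by Benjamini-Hochberg over 17171 genes. A called gene has an adjusted p under 0.05, and "rose" and "fell" are used of called genes. SEs are the log2 change divided by the root of F. CPM values use the scaled library sizes. DESeq2 1.42.0 was an alternative. The fit was tested on simulated data.

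The members and lists were chosen with earlier results of these data known. Named genes are all called members, in each comparison with control the 3 uncalled members with the smallest p, the 3 highest and lowest levels, and up to 4 called genes of a list or, with none called, the 2 with the smallest p; Hnrnpab, Hnrnpd, Hnrnpk, Srsf4, Srsf9, Hnrnph1, Hnrnph2, Srsf1, Srsf2, Srsf6, Srsf12, Ptbp2, Snrpb2 and the smaller list calls were added after their values were seen.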

Additional observations from a re-analysis of the deposited data

How the results depend on the processing

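For valproic acid against control, 7 members called became 1 with Y-linked expression as a covariate, 0 with Xist as a covariate, 4 with only the 6 libraries compared and 11 by DESeq2's Wald test, and 2 to 5 when 1 library was left out. The share of all tested genes called went from 6.35% to 1.58%, 0.0815%, 4.95%, 8.35% and 2.67% to 4.5% in the same fits. The number of members called was 7 with DESeq2 size factors (all genes 6.35%) and 8 with a minimum of 1 CPM in 3 libraries (7.12%). It was 8 without mitochondrial, globin and ribosomal RNA genes in the library sizes (6.34%). With no filter on low counts it was 9 (5.17%), of which 2 fell (Hnrnpa3 and Srsf12). For poly(I:C) against control, 0 became 1 with no filter, 1 by DESeq2 and 0 to 1 when 1 library was left out (all genes 0.536%, then 1.45%, 1.09% and 0.217% to 0.36%). For valproic acid against poly(I:C), 1 became 0 with either sex-linked covariate or only the 6 libraries compared, 4 by DESeq2, and 0 in every fit that left out 1 library (all genes 2.59%, then 0.646% with Y-linked expression, 0.239% with Xist, 2.08%, 4.03% and 0.645% to 1.68%). Fewer libraries leave fewer degrees of freedom; otherwise the cause was not tested.

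The replicate number as a block gave 8, 0 and 0 members in these comparisons, where 5.31%, 0.512% and 2.0% of all tested genes were called. The numbers did not pair the libraries: 1 of 9 same-numbered pairs had a correlation of deviations above 0.1 (range -0.04 to 0.13), and a library correlated best with its own number in 6 of 18 cases.

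The log2 changes of 10 members (the 7 called, Hnrnpa2b1, Hnrnpa3 and Srsf7) were recomputed under each alternative, and none changed sign; for the other members this was not tabulated. Of 210 such values, pooled over the comparisons in which these genes were named, 148 stayed on the same side of the threshold, 51 lost the call and 11 gained it. The 148 include genes not called in the main fit that stayed uncalled, so they are not a count of calls kept. All 51 losses fell on calls of the main fit. With 3 libraries per group, a call depended on the SE of a gene as well as on the size of its change. For valproic acid against control Hnrnpa1 was called at a log2 change of 0.10 (SE 0.0268). Srsf12 was not called at -0.34 (SE 0.114).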
